A study of Mus musculus with 18 samples.

Results

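The 9 genes described here are the MHC class I heavy chain genes H2-K1, H2-D1, H2-Q4, H2-T22, H2-T23, H2-T24 and H2-M3, the light chain gene B2m, and Nlrc5. They were found by exact symbol among the 55450 genes of the count table, and each symbol belonged to 1 gene. RNA was measured in 18 libraries from 3 mouse cancer cell lines in culture: 4T1, a breast carcinoma grown in RPMI medium, and the MC38 colon and LLC lung carcinomas grown in DMEM. All lines carried the genotype label W.T, and all media held fetal bovine serum. Each line had 3 control libraries given DMSO and 3 treated with sildenafil citrate at 100 µM, which blocks the cGMP-degrading enzyme PDE5, with exposures of 24 hours (4T1, MC38) or 48 hours (LLC). LLC is therefore set against the other lines at another time of exposure, and line and time cannot be told apart there. Where 4T1 is compared, line and medium cannot be told apart. The labels do not say whether replicate libraries were separate cultures, and each p-value therefore reflects the variation among these libraries only, which may be technical.

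A class I molecule is a heavy chain that spans the membrane, the light chain beta-2-microglobulin and a short peptide, and it shows fragments of a cell's own proteins to CD8 T cells and natural killer cells. H2-K1 and H2-D1 encode classical heavy chains, which differ strongly between mouse strains; H2-Q4, H2-T22, H2-T23, H2-T24 and H2-M3 encode nonclassical ones with more restricted roles. Nlrc5 is a transactivator that binds no DNA by itself and acts on class I promoters through factors bound at conserved elements, while interferons raise the same genes through STAT and IRF factors. 4T1 was derived from BALB/c (haplotype d), and MC38 and LLC from C57BL/6 (haplotype b), the strain of the reference genome.

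The heavy chain genes lie on chromosome 17 of mm10, B2m on chromosome 2 and Nlrc5 on chromosome 8. H2-K1 spans chr17:33996017-34000347 on the minus strand, H2-D1 chr17:35262730-35267499 on the plus strand and B2m chr2:122147686-122153083 on the plus strand. Promoter sequences covered 250 bases before to 50 after the annotated start. They were found for 7 of the 9 members among RefSeq's GRCm38.p6 entries, and H2-T24 and Nlrc5 had none there. H2-K1 had 2 entries, of which the first listed was used. RefSeq's starts can differ from the gene spans given above, and the H2-D1 window lies wholly inside its gene's span. All 9 members were called higher in 4T1, also H2-Q4 and H2-M3, whose promoters are not printed. The promoters shown are those of the classical pair H2-K1 and H2-D1, the nonclassical H2-T22 and H2-T23, whose responses differed most between lines, and B2m. Each reads 5′ to 3′ on the gene's strand, and capitals mark matches on either strand to 4 short motifs, none of which overlap: AANNGAAA, a core bound by IRF factors, GGGNNTTCC, a kappaB site, TGACG, part of a cyclic AMP response element, and CCAAT, the NF-Y box. They were chosen with the sequences in view.
H2-K1 (chr17:34000298-34000597, minus strand): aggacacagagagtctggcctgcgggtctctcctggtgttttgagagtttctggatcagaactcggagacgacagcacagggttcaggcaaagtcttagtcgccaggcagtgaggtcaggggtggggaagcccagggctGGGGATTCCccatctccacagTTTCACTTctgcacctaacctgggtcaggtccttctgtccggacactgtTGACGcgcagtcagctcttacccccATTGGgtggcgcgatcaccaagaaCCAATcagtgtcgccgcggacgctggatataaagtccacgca
H2-D1 (chr17:35262844-35263143, plus strand): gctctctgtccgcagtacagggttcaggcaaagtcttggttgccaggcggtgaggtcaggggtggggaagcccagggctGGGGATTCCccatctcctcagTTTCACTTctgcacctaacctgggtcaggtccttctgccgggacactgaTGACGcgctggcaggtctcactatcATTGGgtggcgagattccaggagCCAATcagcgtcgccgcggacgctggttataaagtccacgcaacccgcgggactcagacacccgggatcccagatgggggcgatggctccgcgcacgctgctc
H2-T22 (chr17:36042693-36042992, minus strand): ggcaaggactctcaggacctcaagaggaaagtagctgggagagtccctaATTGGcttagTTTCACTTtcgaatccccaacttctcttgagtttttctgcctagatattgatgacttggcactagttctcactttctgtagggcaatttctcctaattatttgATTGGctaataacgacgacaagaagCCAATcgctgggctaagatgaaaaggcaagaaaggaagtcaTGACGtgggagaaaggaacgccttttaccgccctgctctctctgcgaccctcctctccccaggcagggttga
H2-T23 (chr17:36032652-36032951, minus strand): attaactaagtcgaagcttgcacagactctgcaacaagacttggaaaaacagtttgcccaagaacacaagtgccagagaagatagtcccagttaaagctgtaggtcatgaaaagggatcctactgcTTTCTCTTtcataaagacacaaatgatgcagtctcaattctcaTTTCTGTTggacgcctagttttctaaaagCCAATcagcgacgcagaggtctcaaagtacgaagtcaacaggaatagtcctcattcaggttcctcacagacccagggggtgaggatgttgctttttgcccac
B2m (chr2:122147437-122147736, plus strand): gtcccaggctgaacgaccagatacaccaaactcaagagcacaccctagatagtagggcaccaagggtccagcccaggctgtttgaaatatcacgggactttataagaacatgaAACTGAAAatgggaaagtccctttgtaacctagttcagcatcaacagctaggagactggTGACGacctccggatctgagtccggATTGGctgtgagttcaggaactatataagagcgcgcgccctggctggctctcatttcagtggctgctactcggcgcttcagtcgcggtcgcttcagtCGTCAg

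The IRF core was found in 7 of the 7 promoters and in 23.9% of all 32851 promoter entries of that length. CCAAT was found in 7 of 7 against 37.4%, TGACG in 6 of 7 against 20.8%, and the kappaB motif in 3 of 7 against 5.82%. H2-K1, H2-D1 and H2-Q4 held all 4 motifs, as did 0.137% of all entries. In H2-K1 and H2-D1 the kappaB match lay at the same distance upstream of the IRF core, with the same letters at both motifs. H2-T23 held 2 IRF core matches, neither with the letters of the H2-K1 match, and no match to kappaB or TGACG. A match describes the letters of the reference strain in these windows; 4T1 carries other alleles, and binding was not measured.

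Library totals lay between 41070026 and 61600675 counts for 4T1, between 29438227 and 36417407 for MC38 and between 26348659 and 32129786 for LLC. Levels are CPM, counts relative to the library's total, with TMM scaling within the line, or over all 18 libraries where lines are compared. Markers of immune cells were mostly low: Cd3e (T cells), Nkg7 (natural killer cells) and Tyrobp (myeloid and natural killer cells) were at 0 in every library, and the mean of Ptprc, the pan-leukocyte marker, was at most 0.105 CPM in any group. The summed 15 leukocyte markers were still higher with treatment, with ranges in 4T1 of 15.5-16.7 and then 47-47.9 CPM (mostly Cd68), in MC38 of 18.1-18.2 and then 26.9-28.2 CPM, and in LLC of 7.92-8.48 and then 9.44-11.4 CPM. The 9 fibroblast markers summed to 47.2-54.0 and then 97.6-111 CPM in 4T1, 1219-1252 and then 1127-1148 in MC38, and 1147-1181 and then 2211-2249 in LLC, where Col3a1 made up most. The 5 endothelial markers summed to at most 2.45 CPM in any library. The 6 epithelial markers summed to 2733-2831 and then 2184-2270 CPM in 4T1 and 2528-2591 and then 2025-2173 in MC38. In LLC they summed to 203-228 and then 182-189 CPM. Krt8 made up most of the MC38 sum, with a control mean of 2547 CPM. Epcam was at 0 in every MC38 and LLC library, and in LLC Krt8 alone had a mean above 1 CPM. The part of all these markers in the responses was not tested. LLC control replicate 3 stood apart: its chi-square per degree of freedom against the other controls was 53 and 44.6, beside 2.87 to 15.5 for every other pair within a group. Gm26917, a predicted gene with very high counts in MC38 and LLC, had lower means with treatment there. They went from 11190 ± 2640 to 5414 ± 552 CPM in MC38 and from 20360 ± 10200 to 8959 ± 4300 CPM in LLC (TMM within the line, SD, n = 3). In 4T1 Gm26917 was scarcer, and higher with treatment (163.1 ± 2.62 and then 259.7 ± 18.8 CPM). There it shared 0.967 of its log2 variance with treatment. Gm26917 entered the fits only as a covariate in MC38 and LLC, given below. Its part in the results was not otherwise tested.

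With sildenafil, all 9 members were higher in 4T1, 7 of 8 tested in MC38 and 3 of 7 tested in LLC, and none was lower. Among all genes tested with edgeR's quasi-likelihood test at an adjusted p under 0.05, 33.5% were higher and 33.3% lower in 4T1, 19.5% higher and 18.3% lower in MC38, and 15.1% higher and 12.2% lower in LLC. The median log2 fold change of the tested members was 0.75 in 4T1, 0.31 in MC38 and 0.14 in LLC, beside medians over all tested genes of 0.0023, 0.004 and -0.0062. H2-T24 did not pass the expression filter in MC38 and LLC, nor H2-Q4 in LLC. In bulk RNA, a change in the share of cells that express a gene cannot be told apart from a change in RNA per cell. 4T1's responses kept their direction and their calls under every alternative run in that line. The Gm26917 covariate, given below for MC38 and LLC, was not run in 4T1.

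**Figure D1:**
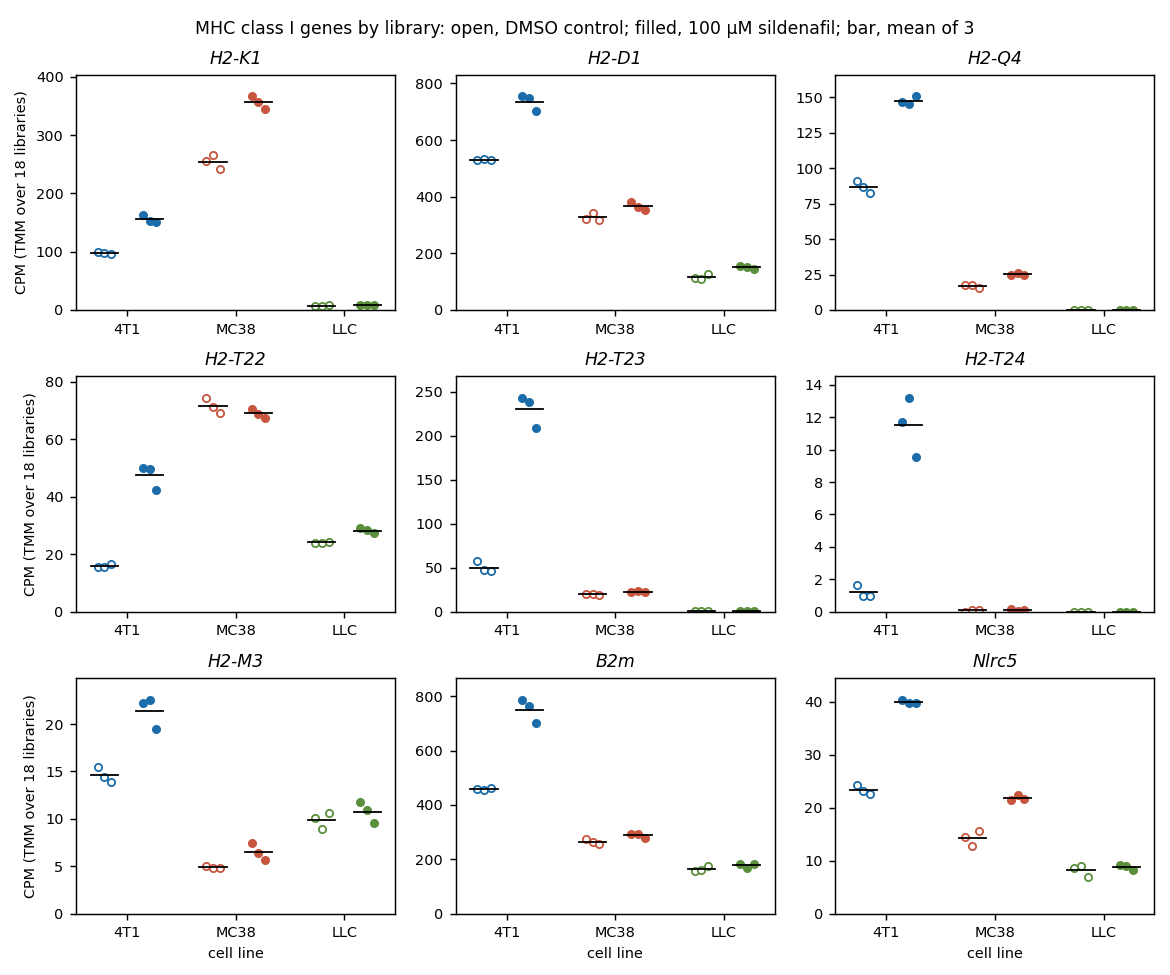
Level of each of the 9 genes in each of the 18 libraries, in CPM with TMM scaling over all libraries, on linear axes that start at 0. Open points are DMSO controls, filled points 100 µM sildenafil, and bars the mean of 3 libraries; H2-K1 is highest in MC38, H2-T23 and H2-T24 rise most in 4T1, and H2-Q4 and H2-T24 are at 0 in LLC.

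The classical heavy chains came first. H2-K1 in the 4T1 controls stood at 103, 101 and 101 CPM and in the sildenafil libraries at 168, 158 and 155 CPM. In MC38 the controls held 244, 255 and 231 CPM and the treated libraries 349, 341 and 328 CPM. All 3 treated libraries lay above all 3 controls in both lines, and the log2 fold change was 0.66 ± 0.0344 (SE, adjusted p = 1.95e-09) in 4T1 and 0.48 ± 0.0367 (adjusted p = 1.61e-07) in MC38. In LLC H2-K1 was scarce, at 7.28, 7.67 and 8 CPM in controls and 8.72, 8.78 and 7.81 CPM with sildenafil. Those groups overlapped, and the log2 fold change of 0.14 ± 0.0917 did not pass the test (adjusted p = 0.277).

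H2-D1 was the more abundant classical heavy chain in every line. In 4T1 its counts may include reads of H2-L, a further D-region gene of BALB/c. H2-D1 was called higher in all 3 lines, and its calls in 4T1 and LLC held under every alternative run. Its 4T1 controls held 554, 556 and 554 CPM and its treated libraries 777, 771 and 730 CPM, a log2 fold change of 0.45 ± 0.0307 (adjusted p = 2.2e-08). MC38 had 308, 326 and 301 CPM in controls and 363, 346 and 337 CPM with sildenafil. The groups did not overlap, but the MC38 log2 fold change was small, at 0.16 ± 0.0357 (adjusted p = 0.00217). LLC had 115, 112 and 129 CPM against 157, 151 and 145 CPM, again without overlap (log2 fold change 0.35 ± 0.059, adjusted p = 0.00246).

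Among the nonclassical heavy chains, H2-T23 encodes Qa-1, which presents leader peptides of other class I chains to the NKG2A receptor. In 4T1 it went from 59.7, 49.2 and 48.6 CPM to 249, 246 and 217 CPM, a log2 fold change of 2.18 ± 0.0983 (4.52-fold, adjusted p = 3.24e-06). Every treated 4T1 library lay far above the highest control. In MC38 the levels were 18.7, 19.2 and 18.6 CPM against 21.5, 22.3 and 21.5 CPM (log2 fold change 0.21 ± 0.0499, adjusted p = 0.00378). In LLC H2-T23 was near the detection limit, with 17.05 to 26.14 expected counts per control library and 41.12 to 45.13 per treated library. The LLC groups did not overlap, and its log2 fold change was 0.82 ± 0.234 (adjusted p = 0.0268).

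H2-T22 encodes a ligand of a subset of gamma-delta T cells and binds no peptide. Its 4T1 controls held 16.4, 16.1 and 17.4 CPM and its treated libraries 51.6, 51.3 and 43.8 CPM, a 2.95-fold rise (log2 1.56 ± 0.064, adjusted p = 3.9e-10). MC38 held far more H2-T22 at the start, yet did not pass the test: controls had 71.1, 68.1 and 66.0 CPM and treated libraries 67.2, 65.7 and 64.3 CPM, with overlap (log2 -0.06 ± 0.0377, adjusted p = 0.248). LLC moved from 24.6, 24.5 and 24.7 CPM to 29.2, 28.5 and 27.3 CPM without overlap (log2 0.20 ± 0.0532, adjusted p = 0.0188). Of the 100-base windows in H2-T22 transcripts, 8.86% also occur in other genes, mostly in H2-T10, so the split of reads between those genes is uncertain. In 4T1, H2-T10 rose with it (log2 1.39 ± 0.0754, adjusted p = 2.7e-09).

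H2-T24, a class I gene of the T region, had the largest fold change of the members and the lowest level. The 4T1 controls held 1.75, 0.996 and 1.03 CPM and the treated libraries 12.1, 13.6 and 9.92 CPM (log2 3.23 ± 0.194, 9.39-fold, adjusted p = 3.65e-07). Every treated library was far above every control. MC38 had 0, 4 and 3 counts in controls and 5, 1 and 4 with sildenafil, too few for a comparison, and LLC had 0 counts in all 6 libraries.

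H2-Q4 is a class I gene of the Q region. It went from 95.1, 90.6 and 86.4 CPM to 151, 149 and 156 CPM in 4T1 and from 16.6, 16.9 and 14.9 CPM to 23.8, 25.1 and 23.2 CPM in MC38. Both lines were without overlap, with log2 fold changes of 0.75 ± 0.0378 (adjusted p = 1.43e-09) and 0.57 ± 0.0596 (adjusted p = 2.46e-06). H2-M3, which presents N-formylated peptides, rose in 4T1 (15.2 ± 0.803 to 22.1 ± 1.63 CPM, SD, n = 3; log2 0.54 ± 0.0623, adjusted p = 4.01e-06). In MC38 its controls held 4.83, 4.64 and 4.54 CPM and its treated libraries 7.07, 6.10 and 5.41 CPM (log2 0.41 ± 0.116, adjusted p = 0.0122). That call rested on the treated library with the highest level: without MC38 sildenafil replicate 1 the adjusted p was 0.0767. LLC controls held 10.3, 9.13 and 10.8 CPM and treated libraries 11.9, 11 and 9.57 CPM, with overlap (log2 0.11 ± 0.103, adjusted p = 0.473).

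B2m encodes the light chain common to all of these heavy chains. Its 4T1 controls held 476, 475 and 486 CPM and its treated libraries 809, 786 and 726 CPM (log2 0.69 ± 0.0378, adjusted p = 2.86e-09). MC38 went from 263, 251 and 242 CPM to 280, 279 and 264 CPM. The nearest MC38 libraries of the groups were almost level, and the log2 fold change of 0.12 ± 0.0349 (adjusted p = 0.0137) lost its call without control replicate 3, sildenafil replicate 1 or sildenafil replicate 2 (adjusted p = 0.0527, 0.0519 and 0.0744). LLC held 161, 163 and 177 CPM in controls and 183, 170 and 183 CPM with sildenafil, with overlap (log2 0.10 ± 0.0527, adjusted p = 0.178). Without LLC control replicate 3, the highest control, the LLC log2 fold change was 0.15 and passed the test (adjusted p = 0.0117).

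Nlrc5, the transactivator, went from 25.3, 24.1 and 23.7 CPM to 41.5, 41.0 and 41.3 CPM in 4T1 (log2 0.76 ± 0.0415, adjusted p = 2.87e-09). MC38 went from 13.9, 12.2 and 14.9 CPM to 20.4, 21.3 and 20.6 CPM (log2 0.60 ± 0.0669, adjusted p = 4.71e-06). The groups were far apart in both lines. LLC did not pass the test, at 8.84, 9.06 and 6.93 CPM against 9.27, 8.95 and 8.27 CPM (log2 0.10 ± 0.114, adjusted p = 0.56), and the value was -0.01 without LLC control replicate 3, the lowest control.

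The LLC count of 3 fell to 1, H2-D1, without LLC control replicate 1, LLC sildenafil replicate 1 or LLC sildenafil replicate 2. H2-T22 lost its call without any of those 3 libraries or LLC control replicate 2 (adjusted p from 0.0504 to 0.0696), with log2 fold changes of 0.19 to 0.21 in those fits. H2-T23 lost its call without any of those 3 or LLC sildenafil replicate 3 (adjusted p from 0.0579 to 0.0867), with log2 fold changes of 0.82 to 0.89. Gm26917 shared 0.85 of its log2 variance with treatment in MC38, so a fit with both could not cleanly separate treatment from Gm26917. With it as a covariate, a choice made after seeing the data, 2 of the MC38 members remained called, H2-K1 (log2 0.32, adjusted p = 0.023) and Nlrc5 (log2 0.83, adjusted p = 0.00696). Of the 5 that lost their call, H2-T23 stood at 0.21 and H2-Q4 at 0.39 (adjusted p = 0.39 and 0.147), H2-M3 at 0.13 and H2-D1 at 0.04 (adjusted p = 0.85 and 0.824), and B2m at -0.04 (adjusted p = 0.833). The same covariate left 1027 genes called in MC38 of 5047 without it. In LLC, where the shared variance was 0.464, the 3 calls were kept.

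**Figure D2:**
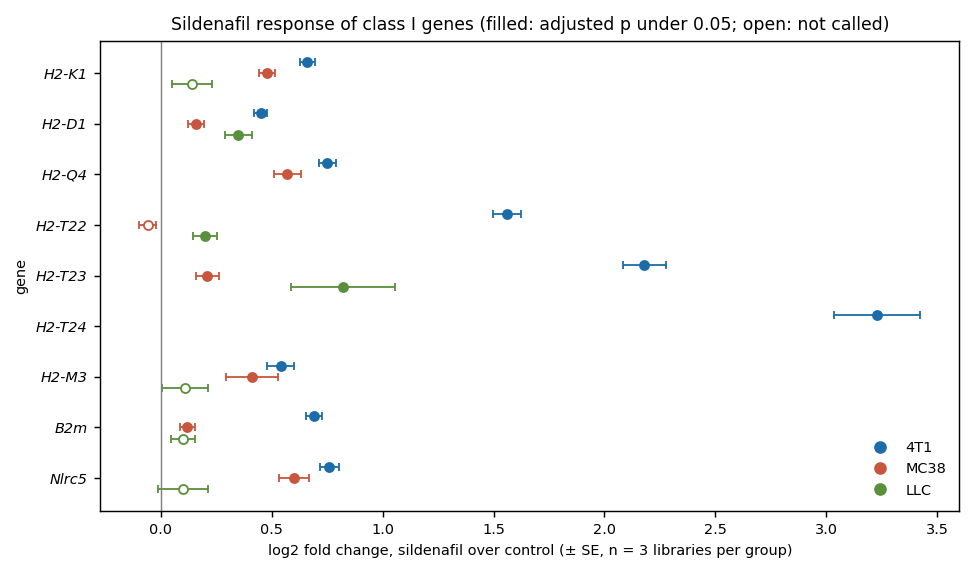
Log2 fold change of sildenafil over control for each member that passed the expression filter in a line, with its SE. Filled points passed the test and open points did not; H2-T22, H2-T23 and H2-T24 in 4T1 lie furthest to the right, and H2-T22 in MC38 alone lies left of 0.

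Whether the responses differed between lines was tested directly, over the members that passed the filter in both lines. Set against 4T1, the MC38 response was lower for 5 of 8 members and higher for none, beside 34.6% of all genes that differed in either direction. The gaps were largest for H2-T23 (log2 -1.98 ± 0.105, adjusted p = 3.61e-11) and H2-T22 (log2 -1.63 ± 0.076, adjusted p = 5.61e-13), followed by B2m (-0.59 ± 0.0672, adjusted p = 3.55e-07), H2-D1 (-0.31 ± 0.0665, adjusted p = 0.000827) and H2-K1 (-0.19 ± 0.0597, adjusted p = 0.0151). The difference for H2-K1 lost its call without 4T1 sildenafil replicate 1, MC38 control replicate 2 or MC38 sildenafil replicate 3 (adjusted p = 0.0617, 0.0643 and 0.0523). For Nlrc5 the difference was -0.17 ± 0.0985 (adjusted p = 0.197), for H2-Q4 -0.19 ± 0.0755 (adjusted p = 0.0615) and for H2-M3 -0.15 ± 0.138 (adjusted p = 0.458). The H2-Q4 difference passed the test without 4T1 control replicate 1, MC38 control replicate 3 or MC38 sildenafil replicate 2 (adjusted p = 0.0321, 0.0198 and 0.0483), and on all libraries with library totals alone, a stricter filter, protein-coding genes alone or the compared lines alone (adjusted p from 0.0315 to 0.0462).

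The LLC response was lower than that of 4T1 for 6 of 7 members, beside 42.0% of all genes that differed. The log2 differences were -1.36 ± 0.0807 for H2-T22, -1.35 ± 0.264 for H2-T23, -0.66 ± 0.11 for Nlrc5, -0.59 ± 0.0678 for B2m, -0.52 ± 0.0807 for H2-K1 and -0.44 ± 0.126 for H2-M3, with adjusted p from 1.07e-11 to 0.00709. H2-D1 was the exception (-0.10 ± 0.0676, adjusted p = 0.246), so its response in LLC was not shown to be smaller than in 4T1. The comparisons with 4T1 share its libraries. Between LLC and MC38, 22.3% of all genes differed, and 4 of 7 members did: H2-K1 (-0.33 ± 0.0804, adjusted p = 0.00468) and Nlrc5 (-0.49 ± 0.116, adjusted p = 0.00341) responded less in LLC, while H2-T22 (0.28 ± 0.0785, adjusted p = 0.0127) and H2-D1 (0.20 ± 0.068, adjusted p = 0.0346) responded more. The H2-D1 difference was lost in 8 of the 12 fits that left out 1 library, namely without replicate 1 or 2 of the MC38 controls, 2 or 3 of the MC38 sildenafil group, 1 or 2 of the LLC controls, or 1 or 2 of the LLC sildenafil group (adjusted p from 0.0515 to 0.106). It was also lost on all libraries with library totals alone, a stricter filter, protein-coding genes alone or the compared lines alone (adjusted p from 0.0515 to 0.0653), at log2 differences of 0.17 to 0.21. H2-T23 differed by 0.64 ± 0.252 (adjusted p = 0.0785), and passed the test in DESeq2, with no filter and with the compared lines alone (adjusted p = 0.0434, 0.0247 and 0.018). H2-M3 differed by -0.29 ± 0.147 (adjusted p = 0.18) and B2m by 0.00 ± 0.0683 (adjusted p = 1.0).

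The control levels of the lines differed for every member that passed the filter in both lines: 8 of 8 between MC38 and 4T1, 7 of 7 between LLC and MC38 and 7 of 7 between LLC and 4T1. Differences were common throughout, at 84.8%, 77.0% and 87.0% of all genes. Each sentence here gives CPM scaled over 18 libraries. H2-K1 had a mean of 97.3 ± 1.52 CPM in 4T1, 255 ± 12.2 in MC38 and 7.52 ± 0.38 in LLC (SD, n = 3), so LLC lay 33.8-fold below MC38 (log2 -5.08 ± 0.0563, adjusted p = 1.14e-26), a line of the same haplotype. H2-D1 had 531 ± 2.29, 327 ± 13.2 and 117 ± 9.1 CPM, a 2.80-fold gap between MC38 and LLC.

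H2-T23 spanned a wide range too, with 50.2 ± 6.07 CPM in 4T1, 19.7 ± 0.297 in MC38 and 0.782 ± 0.212 in LLC, a 25.4-fold gap between the haplotype b lines (log2 -4.66 ± 0.143, adjusted p = 5.49e-17). H2-Q4 had 86.8 ± 4.43 CPM in 4T1 and 16.9 ± 1.14 in MC38. In LLC it was listed at 0 in all 6 libraries; set against a floor of 3 counts over the control group, MC38 was at least 463-fold higher and 4T1 at least 2568-fold higher. H2-T24 in 4T1 was at least 35.7-fold above the LLC controls by the same floor.

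Other members ordered the lines differently. H2-T22 was highest in MC38 (71.7 ± 2.62 CPM, against 24.2 ± 0.175 in LLC and 15.9 ± 0.569 in 4T1). H2-M3 was lowest in MC38 (4.89 ± 0.15 CPM, against 9.88 ± 0.85 in LLC and 14.6 ± 0.809 in 4T1). B2m fell in the order 4T1, MC38, LLC with 458 ± 4.35, 264 ± 10.7 and 164 ± 9.06 CPM, and Nlrc5 in the same order with 23.3 ± 0.894, 14.3 ± 1.44 and 8.13 ± 1.12 CPM. Reads from the BALB/c alleles of 4T1 were aligned to a C57BL/6 reference and can be lost or assigned to a related gene, and BALB/c carries a further D-region gene, H2-L, so level and allele cannot be told apart where 4T1 is compared. B2m and Nlrc5 share no 100-base window with another gene.

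Per length, as counts divided by exon length and rescaled per library (TPM), B2m was the highest member in every group and H2-D1 the second. In the 4T1 controls the order was B2m at 1735, H2-D1 at 670, H2-Q4 at 109 and H2-K1 at 108, the last pair overlapping, then H2-T23, H2-M3, H2-T22, Nlrc5 and H2-T24. In the MC38 controls it was B2m at 529, H2-D1 at 218, H2-K1 at 149 and H2-T22 at 36.2, then H2-T23 and H2-Q4, which overlapped, H2-M3, Nlrc5 and H2-T24. In the LLC controls it was B2m at 383, H2-D1 at 90.6, H2-T22 at 14.3 and H2-M3 at 13.8, which overlapped, then H2-K1, Nlrc5 and H2-T23, with H2-Q4 and H2-T24 at 0. Nlrc5 was thus low among the members expressed in each line, at 8.94, 2.92 and 1.95. These TPM values carry no TMM scaling, so they order genes within a line and do not measure differences between lines. For those the scaled CPM above apply, by which B2m was 1.73-fold and Nlrc5 1.63-fold higher in 4T1 than in MC38.

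The make-up of the heavy chain transcripts is given as a description, with no test. In 4T1 the H2-D1 share, and the ratio of H2-K1 to H2-D1 given below, may include reads of H2-L. In 4T1 the share of H2-T23 among the 7 heavy chains, per length, went from 5.69% ± 0.589 to 15.7% ± 0.577 (SD, n = 3), and that of H2-D1 from 67.5% ± 1.02 to 56.1% ± 0.2. In MC38 the share of H2-K1 went from 34.5% ± 0.289 to 39.7% ± 0.153 and that of H2-D1 from 50.4% ± 0.462 to 46.5% ± 0.351. In LLC H2-D1 made up 72.9% ± 0.889 and then 75.4% ± 0.551. In each of these cases the groups did not overlap.

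The ratio of H2-K1 to H2-D1 transcripts per length was 0.161 ± 0.00208 in 4T1 controls, 0.684 ± 0.011 in MC38 controls and 0.0568 ± 0.00285 in LLC controls. With sildenafil it was 0.185 ± 0.00473, 0.853 ± 0.0105 and 0.049 ± 0.00191, so it was higher in 4T1 and MC38 and lower in LLC, without overlap. Reads shared among the heavy chains cannot move their sum, but reads shared with other genes, such as H2-T10, can. The summed heavy chains stood in 4T1 at 833 ± 12.1 and then 1392 ± 51.8 CPM (1.67-fold). In MC38 the sum stood at 663 ± 27.1 and then 806 ± 26.4 CPM (1.22-fold), and in LLC at 162 ± 9.62 and then 200 ± 8.55 CPM (1.24-fold). Per length, summed heavy chains stood to B2m at 0.572 ± 0.0142 and 0.584 ± 0.0116 in 4T1, with overlap. The same ratio was 0.817 ± 0.0356 and 0.913 ± 0.0155 in MC38, and 0.325 ± 0.00723 and 0.375 ± 0.0241 in LLC, higher with sildenafil and without overlap.

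**Figure D3:**
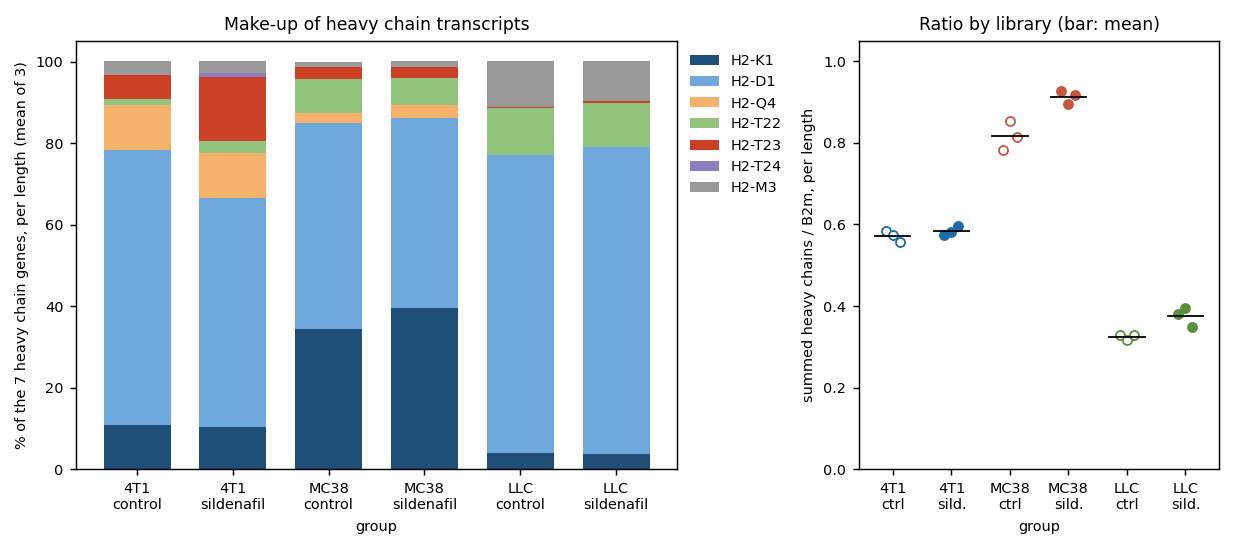
Left, mean share of each of the 7 heavy chain genes in their summed transcripts per length, in percent, for the 6 groups; right, the ratio of summed heavy chain to B2m transcripts per length in each library, with bars at the mean of 3. H2-D1 is the largest share in every group, the H2-T23 share is largest in treated 4T1, and the ratio is highest in MC38 and lowest in LLC.

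Other class I genes, taken from a list of 18 of which 17 were in the table, moved in the same direction in 4T1. There 7 of 9 tested were higher and none lower (33.5% and 33.3% of all genes), with a median log2 fold change of 0.80. They included Mr1, which presents vitamin B metabolites (log2 1.32 ± 0.0562, adjusted p = 2.62e-10), and H2-Q6 (log2 0.80 ± 0.049, adjusted p = 8.2e-09). In MC38 2 of 4 were higher, H2-K2 (0.93 ± 0.147, adjusted p = 0.000134) and Mr1 (0.32 ± 0.102, adjusted p = 0.0214), and in LLC 0 of 4 were called, none of them at an adjusted p below 0.154.

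The 13 peptide loading and immunoproteasome genes serve to supply, trim or load the peptides. All passed the filter in each line, and 11 were higher in 4T1, 7 in MC38 and 7 in LLC, beside 33.5%, 19.5% and 15.1% of all genes, with medians of 0.69, 0.13 and 0.35. Tapbp, the tapasin that holds heavy chains at the peptide transporter, rose in every line (log2 1.34 ± 0.0266, adjusted p = 3.34e-13 in 4T1, 0.43 ± 0.0336, adjusted p = 1.41e-07 in MC38, and 0.84 ± 0.0558, adjusted p = 1.1e-05 in LLC). Tap1, a transporter subunit, rose in 4T1 (1.5 ± 0.0403, adjusted p = 4.89e-12) and MC38 (0.26 ± 0.0585, adjusted p = 0.00283). In LLC Tap1 did not pass the test (0.21 ± 0.153, adjusted p = 0.319). Tap2, its partner, rose in 4T1 (0.69 ± 0.0339, adjusted p = 1.05e-09), MC38 (0.26 ± 0.0461, adjusted p = 0.000345) and LLC (0.84 ± 0.0528, adjusted p = 7.92e-06). The immunoproteasome subunit Psmb8 was higher in 4T1 (1.09 ± 0.0452, adjusted p = 2e-10) and LLC (0.94 ± 0.149, adjusted p = 0.00183). In MC38 it did not pass the test (-0.08 ± 0.0461, adjusted p = 0.19), and Psmb10, another such subunit, was the 1 gene of the list called lower (-0.27 ± 0.0531, adjusted p = 0.000905).

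**Figure D4:**
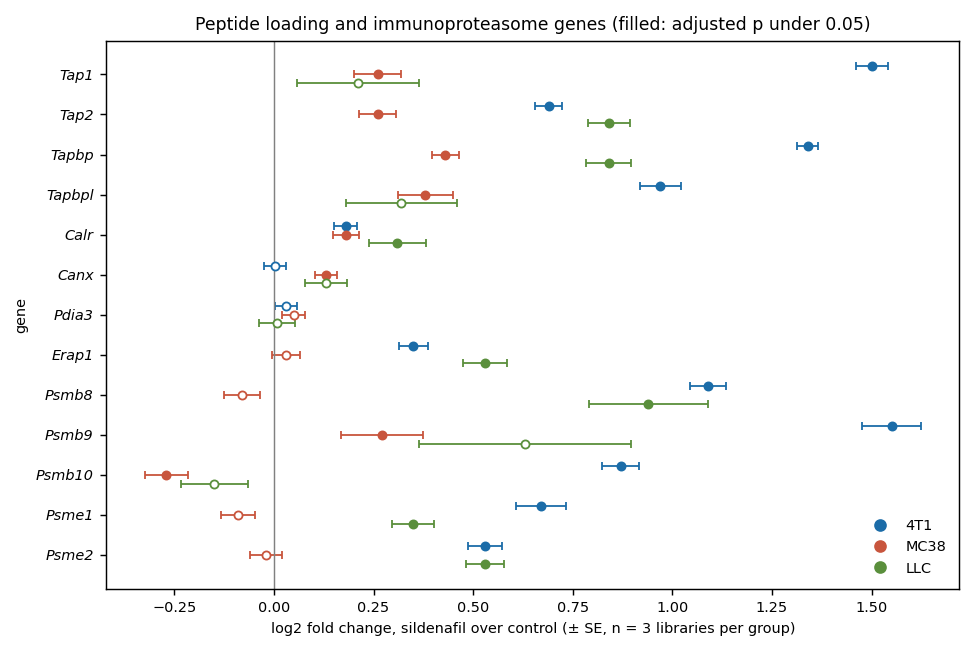
Log2 fold change of sildenafil over control, with its SE, for the 13 peptide loading and immunoproteasome genes in each line. Filled points passed the test and open points did not; Tapbp is filled in all 3 lines, and Psmb10 in MC38 is the filled point left of 0.

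Of 15 transcription factor genes known to act on class I promoters, 7 were higher and 7 lower in 4T1, 5 and 3 in MC38, and 3 and 2 in LLC, with medians near 0 (0.06, 0.06 and 0.02). Over all genes the higher and lower shares were 33.5% and 33.3%, 19.5% and 18.3%, and 15.1% and 12.2%, so the LLC counts lay near the background. In 4T1 the higher genes included the interferon pathway factors Irf1, Irf9 and Stat2 and the RFX subunits Rfx5 and Rfxank. The 7 lower were the NF-Y subunits Nfya, Nfyb and Nfyc, Creb1, Atf1, and the NF-kappaB subunits Nfkb1 and Rela, by at most 0.41. Stat2 had the largest rise in 4T1 (15.6 ± 2.32 to 90.4 ± 3.68 CPM, log2 2.53 ± 0.0843, adjusted p = 1.06e-08) and in MC38 (log2 0.87 ± 0.0521, adjusted p = 6.3e-09). In LLC Irf1 led (15.5 ± 1.67 to 29.8 ± 1.03 CPM, log2 0.94 ± 0.0787, adjusted p = 4.99e-05), and Rfx5 was lower (-0.28 ± 0.0548, adjusted p = 0.00486).

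Few transcripts of the interferon genes Ifnb1 and Ifng were counted. Ifnb1 had a mean of 0.0292 CPM in 4T1 controls and 0.0538 with sildenafil, Ifng had 0.0192 and 0.0124, and neither passed the filter in any line. Among the 13 interferon, receptor and receptor kinase genes, 6 of 8 tested were higher in 4T1, 4 of 7 in MC38 with 1 lower (Jak1, log2 -0.13 ± 0.042, adjusted p = 0.0226), and 3 of 7 in LLC, beside 33.5%, 19.5% and 15.1% of all genes higher. The LLC genes were Ifngr1 (0.52 ± 0.066, adjusted p = 0.000549), Ifnar2 and Ifnar1. Tyk2, a kinase of the type I receptor, was higher in 4T1 (0.88 ± 0.0637, adjusted p = 9.52e-08) and MC38 (0.50 ± 0.058, adjusted p = 7.84e-06). Of 9 class II genes 2 passed the filter in each line. Cd74, the invariant chain, was higher in 4T1 (26.7 ± 0.621 to 48.2 ± 3.68 CPM, log2 0.85 ± 0.053, adjusted p = 9.73e-09), while Ciita, the class II counterpart of Nlrc5, had at most 0.299 CPM in any group.

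The genes whose departure from their line's control mean was most alike over the 18 libraries were listed for 3 members, among 10348 protein-coding genes tested in every line. For H2-K1 they were Echdc1, Mospd2, Mmab, Insig1 and Mvd (Pearson's r from 0.979 to 0.985). For B2m they were Anxa7, Rnh1, Ifitm3, C1ra and Lztr1 (r from 0.983 to 0.985), and for Nlrc5 Srebf2, Scd2, Fbxl20, Sash1 and Ttc39b (r from 0.969 to 0.979). These are descriptions with no test, since the libraries share line and treatment.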

How the data were processed

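Expected counts per gene were deposited by the authors for 18 polyA RNA libraries (stranded kit, 100-cycle paired reads, per the labels' protocols). The submitters' processing notes list bcl2fastq 2.17, cutadapt 1.18, STAR 2.7.0f, RSEM 1.3.1 and build mm10; which annotation and strand setting were used is not given in the sources used here. RSEM divides shared reads among related genes, and 4.30% to 6.91% of a library's values had a fractional part. Identifiers matched GENCODE release M21, which gave positions and exon lengths.

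Counts were rounded and tested in R 4.3.3 with edgeR 4.0.16 (TMM, filterByExpr, quasi-likelihood F test with robust dispersions, Benjamini-Hochberg adjustment over all genes tested, threshold 0.05): within each line on 6 libraries (4 residual degrees of freedom), and over 18 libraries with 1 coefficient per group for differences in response and control level. An SE is the log2 fold change divided by the square root of F. The fits were tested on simulated data with the same dispersion for every gene and no deviant library. That check does not cover a library such as LLC control replicate 3. Line-to-line comparisons cover members that passed the filter in both lines, a rule set after seeing the data; a gene at 0 is compared through a floor of 3 counts over the group, which covers counting error only. DESeq2 1.42.0, limma-voom (limma 3.58.1), other scalings and filters, unrounded counts, a replicate block and leaving out each library were alternatives. Members and lists were chosen with earlier results of these data known. All 9 members are named; list genes were named for the smallest adjusted p or where a small count needs them. Psmb8 and Psmb10 in LLC or MC38, H2-T10, H2-K2, Cd74 and Ciita were named after their values were seen. Figures used matplotlib 3.10.9. Values of 1 gene of the transcription factor list are not reported here.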

Additional observations from a re-analysis of the deposited data

Results flagged for a closer look

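The sildenafil response differed between lines, by a test of the difference itself, for the following members. Values are differences of log2 fold changes with adjusted p under 0.05 from edgeR's quasi-likelihood test over 18 libraries. MC38 minus 4T1 gave -0.19 for H2-K1, -0.31 for H2-D1, -1.63 for H2-T22, -1.98 for H2-T23 and -0.59 for B2m. LLC minus MC38 gave -0.33 for H2-K1, 0.20 for H2-D1, 0.28 for H2-T22 and -0.49 for Nlrc5. LLC minus 4T1 gave -0.52 for H2-K1, -1.36 for H2-T22, -1.35 for H2-T23, -0.44 for H2-M3, -0.59 for B2m and -0.66 for Nlrc5. The exposure was longer in LLC, so line and time cannot be told apart in the comparisons with LLC. The medium differed in 4T1, so line and medium cannot be told apart in the comparisons with 4T1. The H2-D1 difference between LLC and MC38 lost its call under 4 alternatives on all libraries and in 8 fits without 1 library.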

How the results depend on the processing

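Over the member values recomputed under the alternatives, 1067 kept direction and side of the threshold, 34 lost their call, 13 gained one and 10 changed sign. Members called in 4T1 stayed at 9 of 9 under every alternative run there, which did not include the Gm26917 covariate. In MC38 the count of 7 became 2 with the Gm26917 covariate, where B2m stood at -0.04. In LLC the count of 3 ranged from 1 to 4 when 1 library was left out, and all genes called from 1841 to 5994 (3702 with all libraries; 5994 without LLC control replicate 3, and 2279 with the covariate). Nlrc5 in LLC ranged from -0.01 to 0.17 with 1 library left out. The B2m difference between LLC and MC38 (0.00) was 0.01 with no filter and 0.01 with the libraries of those lines alone, and ranged from -0.03 to 0.04 with 1 library left out. Library totals without TMM moved the summed heavy chains of 4T1 to 0.81 (log2; 0.74 with TMM) and called H2-D1 lower in LLC than in 4T1 (-0.16, adjusted p = 0.0403). H2-T23 in LLC lost its call in DESeq2 (adjusted p = 0.0722), and H2-T23 and B2m in MC38 when all 18 libraries were fitted together (0.0609 and 0.0641). The cause of these changes was not tested, except that fits without a library have fewer samples.

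Same-numbered libraries did not consistently deviate together in any line (correlations from -0.0719 to 0.238, not all above 0.1), so the numbers were not taken as pairs. The highest correlations were 0.238 for MC38 replicate 3 and 0.139 and 0.117 for LLC replicates 1 and 3. With a replicate block the members called were 9, 7 and 3 in 4T1, MC38 and LLC, and all genes called 9090, 5867 and 4078; the block changed 1 call among the members, the H2-T23 difference between LLC and MC38 (0.64, adjusted p = 0.0306). Not every library correlated best with its own number in any line. Depth limits H2-T23 in LLC, which rests on few counts, and H2-T24 in MC38, which had too few for the expression filter. H2-T24 and H2-Q4 had 0 counts in every LLC library, so no response could be measured there.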
